A study of Mus musculus with 9 samples.

Results

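Igll1, Vpreb1 and Vpreb2 are the mouse genes of the surrogate light chain, 3 of the 37310 genes in the GENCODE annotation on mm9, and they were described by the CTCF and Rad21 peaks called over each gene body or within 100 kb on either side. Igll1 and Vpreb1 lie next to each other on chromosome 16 with 4416 bp between them, and their windows overlap so far that they hold the same peaks, while Vpreb2 lies 1109577 bp higher on the same chromosome. The 2 separate stretches, chr16:16760764-16970936 for Igll1 and Vpreb1 and chr16:17880514-18081366 for Vpreb2, held 83 of the 190262 peaks in the 5 lists.

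The study compared CTCF and cohesin binding in developing lymphocytes by ChIP-seq. All cells came from C57BL/6 mice that cannot rearrange antigen receptor genes because RAG1 is absent. Pre-B cells were bone marrow cells of mice that also carried a rearranged µ heavy chain transgene, and pro-B cells came from Rag1-/- mice and were grown for 7 days with IL7; both were from animals of 6 to 14 weeks. CD4-CD8- (DN) thymocytes came from Rag1-/- mice, and CD4+CD8+ (DP) thymocytes from Rag1-/- mice with a rearranged TCRb transgene, both at 4 to 8 weeks. CTCF was mapped in the pre-B and the IL7-cultured pro-B cells, and Rad21 in the pre-B cells, DN and DP thymocytes, with 1 library for each, so no test between cell types was possible and no difference below carries a replicate error. The transgene sets the pre-B and DP cells apart from the pro-B and DN cells. The culture sets the pro-B cells apart from the pre-B cells, so genotype, culture and stage cannot be told apart. Pre-B cells and thymocytes also differ in tissue and in age range, which cannot be told apart from lineage. The files hold peaks and no expression values, so the cell labels could not be checked against marker genes.

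Igll1 encodes λ5 and Vpreb1 and Vpreb2 encode the VpreB proteins, which pair to stand in for a light chain before one has been rearranged. With the µ heavy chain and the signalling chains encoded by Cd79a and Cd79b they form the pre-B cell receptor, the checkpoint between the pro-B and pre-B stages, and the genes are shut off as B cells mature. CTCF is a zinc finger protein that binds a directional motif, and Rad21 is a subunit of cohesin, the ring complex that extrudes DNA loops and often halts at CTCF sites.

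The lengths of the lists differ and bear on each count below. They held 42250 pre-B CTCF peaks, 71080 IL7 pro-B CTCF peaks, 30488 pre-B Rad21 peaks, 9701 DN Rad21 peaks and 36743 DP Rad21 peaks. The read depth behind each list is unknown, and the score of a peak grows with depth. A peak is therefore described by its percentile, the share of peaks in its own list with a lower score. The percentile depends on the length of the list, so percentiles from lists of unlike length are not directly comparable. Peaks of the 5 lists that overlapped by 1 bp or more were joined into 33 sites, numbered in the order of their coordinates as L1 to L12 around Igll1 and Vpreb1 and V1 to V21 around Vpreb2.

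The sequences below carry the consensus matches at 5 of the CTCF sites described further on. They were read from the mm9 reference genome, 5′ to 3′ on the strand of the match, and the capitals mark the 12 bases that match the de novo CTCF consensus of the study with at most 2 mismatches. L3 (match at chr16:16855142-16855153, minus strand) and L7 (chr16:16871159-16871170, plus strand) are the nearest pre-B CTCF sites on either side of the coding parts of Igll1 and Vpreb1. L11 (chr16:16921195-16921206, minus strand) and V13 (chr16:18036973-18036984, plus strand) are the sites at which Rad21 was called in the pre-B list alone of the 3 Rad21 lists. V15 (chr16:18052904-18052915, minus strand) is a site of the Vpreb2 window present in all 5 lists.
L3: tcctatatcGCCCCCTGCTGGcacctactc
L7: tgagacgttTCCCCCTAGTTGagggtaggg
L11: cctcagcttGCCCTCTAGTGGcctggacat
V13: ccactgtgcGCCCTCTGCTGGtcatcctcc
V15: tggttgcgcGCCCCCTGGCGGacatttcta

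A coding start site is the annotated start of a protein-coding transcript, not the start codon. The coding start sites of the 3 genes were covered by CTCF in the cultured pro-B cells and by a peak of no other list. The peak at Igll1 (chr16:16863833-16864454) had a score of 438.01 and stood at the 56.7th percentile of the IL7 pro-B list. The peaks at Vpreb1 (chr16:16869091-16869597, score 62.23) and Vpreb2 (chr16:17980343-17981000, score 65.60) were among the weakest of that list, at percentiles 9.27 and 11.3. An IL7 pro-B CTCF peak over a coding start site without a pre-B CTCF peak there was thus called at 3 of 3 members, against 9.69% of 22342 protein-coding genes. With scores of at least 100 the Igll1 peak alone was left (1 of 3, against 6.43% of genes), and so it was with the IL7 list cut to the length of the pre-B list (1 of 3, against 2.83%). In that cut list the Igll1 peak stood at percentile 27.2. No Rad21 peak of any cell type covered a coding start site of the members (0 of 3), and 27.2% of protein-coding genes had one.

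The 120 bases upstream of the start sites are shown because the 3 peaks cover them. In the Igll1 sequence (chr16:16864079-16864198, minus strand) the capitals mark the best match to the CTCF consensus, which lies 48 to 59 bp upstream of the start site and has 2 mismatches. In the sequences of Vpreb1 (chr16:16869349-16869468, minus strand) and Vpreb2 (chr16:17980394-17980513, plus strand) the capitals mark the bases at which the 2 genes differ.
Igll1: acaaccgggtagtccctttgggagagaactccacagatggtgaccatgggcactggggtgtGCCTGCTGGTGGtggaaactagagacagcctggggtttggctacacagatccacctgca
Vpreb1: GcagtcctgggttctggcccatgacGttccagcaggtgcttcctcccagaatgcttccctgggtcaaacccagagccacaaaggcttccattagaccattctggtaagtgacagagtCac
Vpreb2: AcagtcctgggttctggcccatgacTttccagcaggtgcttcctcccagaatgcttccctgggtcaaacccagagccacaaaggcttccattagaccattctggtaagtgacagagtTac

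Vpreb1 and Vpreb2 differed at 3 of these 120 bases. Over 1350 bp without a gap, from 200 bp upstream of the start sites, the genes differed at 40 bases and were 97.0% identical. Of the 36-base words in the Vpreb1 peak 26.5% had an exact copy elsewhere on chromosome 16, and of those in the Vpreb2 peak 49.6%, against 0 in the Igll1 peak. Reads with as many as 3 places in the genome were kept by the authors, so the peaks at Vpreb1 and Vpreb2 can hold the same reads, and how far they do was not tested. Among the 20 pre-B CTCF peaks of the windows the median share of such words was 0 and the highest 16.2%. In the RefSeq promoters, which span 250 bases before to 50 after the start, a consensus match was present for Igll1 and absent for Vpreb1 and Vpreb2, and 7.52% of 32851 promoters held one. The Igll1 match scored below the threshold of a 20-base matrix built from pre-B CTCF peaks of the other chromosomes.

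**Figure D1:**
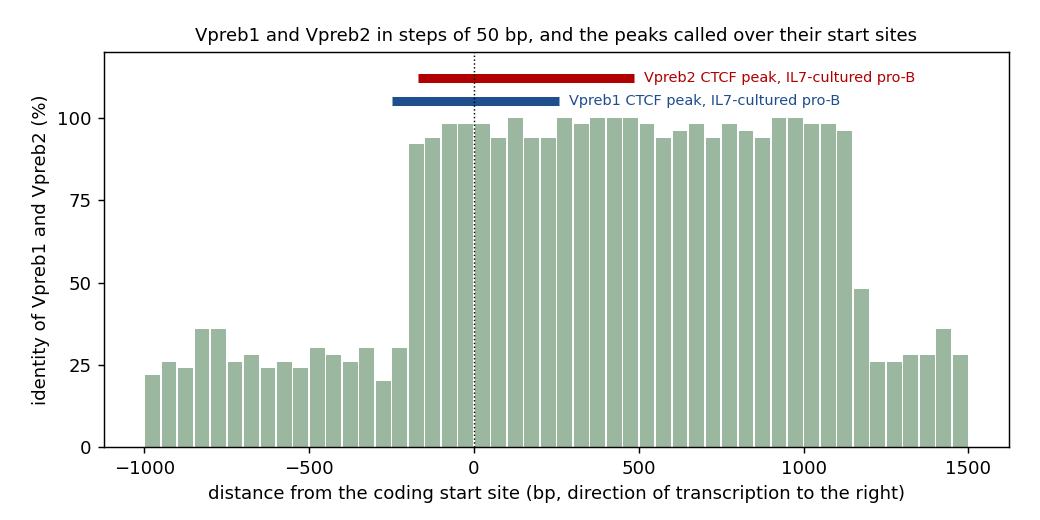
Identity of Vpreb1 and Vpreb2 (percent, vertical axis) in steps of 50 bp by distance from the coding start site (bp, horizontal axis), with the spans of the IL7 pro-B CTCF peaks over the start sites drawn as bars above. Both peaks lie almost wholly in the stretch of 1350 bp in which the genes are 97.0% identical.

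Around Igll1 and Vpreb1 the pre-B list held 6 CTCF peaks, and all 6 were also called in the IL7 pro-B list, which held 11. The protein-coding genes had a median of 7 and 12 peaks in windows of the same kind. The 5 sites called by IL7 CTCF alone were L2 at the pseudogene Gm15714, L4 at 1.86 kb past the 3′ end of Igll1, the start site peaks L5 and L6, and L12 near the edge of the window. Of these, L4 ranked highest at the 60.6th percentile.

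The coding parts of Igll1 and Vpreb1 lie between L3 and L7. L3, in intergenic sequence 5.17 kb past the 3′ end of Igll1, was present in all 5 lists and ranked high in 4 of them, with percentiles of 92.2 for pre-B CTCF, 91.4 for IL7 pro-B CTCF, 88.4 for pre-B Rad21 and 95.3 for DP Rad21. In the shorter DN Rad21 list it stood at 69.9. The order of the cell types there depends on the length of the lists, since among the 9701 top-scoring Rad21 peaks of each library L3 stood at 63.7 for pre-B, 69.9 for DN and 82.1 for DP cells. L7 covers the coding start of Top3b, a DNA topoisomerase gene transcribed away from Vpreb1, and the start of a noncoding Vpreb1 transcript, so it touches the annotated body of Vpreb1 but not its coding start, which is 1115 bp from the pre-B CTCF peak. The percentiles at L7 were 58.6 for pre-B CTCF, 57.7 for IL7 pro-B CTCF, 61.7 for pre-B Rad21 and 83.0 for DP Rad21, with no DN peak. With the IL7 list cut to the length of the pre-B list, IL7 pro-B CTCF at L7 stood at 28.8. Rad21 at L7 ranked 6236 in the DP list and 11691 in the pre-B list, so it stood higher in DP thymocytes by rank and by percentile. Over all protein-coding genes, DP Rad21 peaks covered 24.1% of coding starts and pre-B Rad21 peaks 11.8%.

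The consensus is written as the reverse of the way the CTCF motif is usually read, so a plus-strand match was taken as pointing to lower coordinates. By the consensus, the match in L3 points to higher and that in L7 to lower coordinates, so that both point toward Igll1 and Vpreb1. The matrix gave L3 the same orientation with a score of 19.5 against a threshold of 12.5. At L7 the matrix score was 7.07, below the threshold, and its orientation rests on the consensus alone. The matches in L11 and V15 point to higher coordinates, away from Igll1 and Vpreb1 and from Vpreb2 respectively, and that in V13 to lower coordinates, toward Vpreb2, by the consensus and by the matrix, with scores of 18.4, 18.1 and 19.3.

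The highest-ranked site of the windows in each of the 3 Rad21 lists was L10, in an intron of the phosphatase gene Ppm1f and 48.1 kb from the Igll1 start site. Its percentiles were 93.3 and 97.1 for CTCF in pre-B and IL7 pro-B cells and 99.3, 91.7 and 98.6 for Rad21 in pre-B, DN and DP cells, ranks 220, 778 and 517 of their lists. No consensus match with at most 2 mismatches was found in the pre-B CTCF peak of L10, and its matrix score of 7.07 was below the threshold. At L9, over the Ppm1f coding start, CTCF stood at the 92.5th percentile in pre-B cells and the 91.6th in IL7 pro-B cells, but Rad21 was called in DP thymocytes alone, at the 76.8th percentile. L11, in another Ppm1f intron 57.2 kb from the Igll1 start site, had the converse pattern. Rad21 was called there in pre-B cells, at the 63.8th percentile, and in neither thymocyte list, with CTCF at percentiles 40.4 and 67.0 in pre-B and IL7 pro-B cells. With the IL7 list cut to the length of the pre-B list, IL7 pro-B CTCF at L11 stood at 44.4. The pre-B Rad21 peak at L11 ranked 11045, so it lies outside a list cut to the 9701 peaks of the DN list. L1, over the coding start of Spag6, had middling percentiles of 62.2 and 68.7 for CTCF and of 43.5 and 43.3 for Rad21 in pre-B cells and DP thymocytes.

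**Figure D2:**
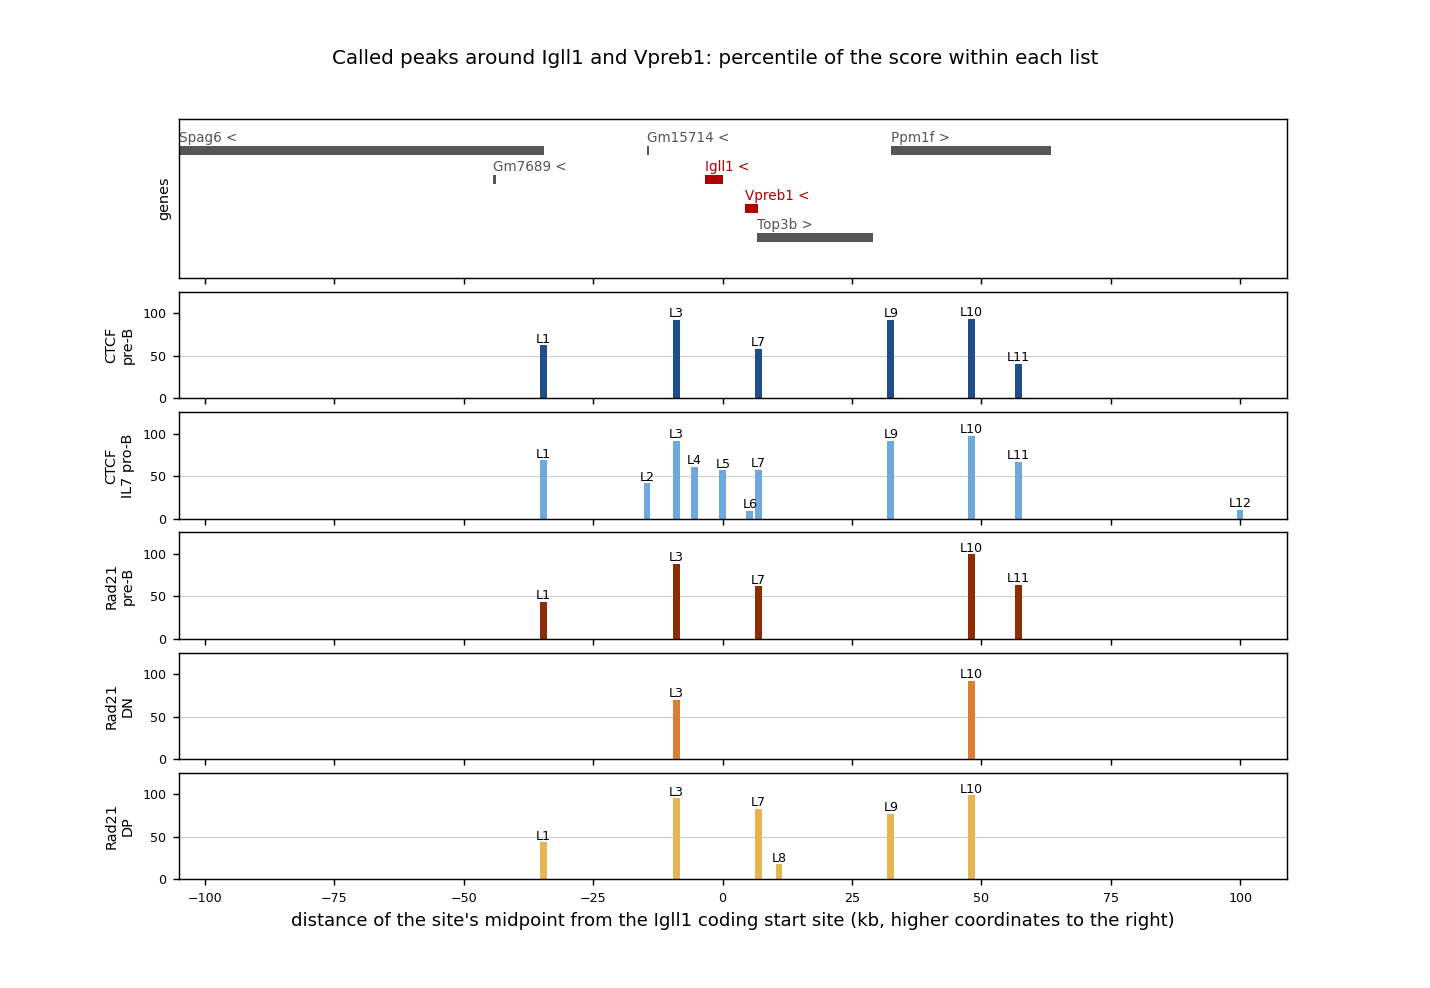
Genes (top; > and < give the direction of transcription) and called peaks in the 5 libraries around Igll1 and Vpreb1, by distance of the site's midpoint from the Igll1 coding start (kb, horizontal axis) and percentile of the score within each list (vertical axes). L3 and L10 are present in all 5 lists, and L5 and L6 over the coding start sites of Igll1 and Vpreb1 in the IL7 pro-B CTCF list alone.

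Around Vpreb2 more peaks were called, 14 for pre-B CTCF, 15 for IL7 pro-B CTCF, 9 for pre-B Rad21, 3 for DN Rad21 and 12 for DP Rad21. Of the protein-coding genes, 17.9% had at least as many pre-B CTCF peaks in their window and 38.8% at least as many IL7 pro-B CTCF peaks. For Rad21 the corresponding shares were 24.9% in pre-B, 28.9% in DN and 20.3% in DP cells. The window also holds Dgcr2, Dgcr14, Slc25a1, Dgcr6 and Prodh, and all of its sites but V8 to V11 lie over those genes or nearest to them. Between V7, 40.2 kb before the 5′ end of Vpreb2, and V11, past its 3′ end, no list but that of IL7 pro-B CTCF held a peak.

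V11, in intergenic sequence 5.16 kb past the 3′ end of Vpreb2, was the nearest pre-B CTCF and the nearest Rad21 site to this gene, at about the distance that L3 has from the 3′ end of Igll1. It was present in all 5 lists. The CTCF percentiles were 80.7 in pre-B and 94.5 in IL7 pro-B cells, and the Rad21 percentiles 77.1 in pre-B cells, 91.2 in DN thymocytes and 67.0 in DP thymocytes. Of the 5 Rad21 sites shared by the 3 cell types, V11 was the one whose DN percentile lay above those of pre-B and DP cells, and by rank the order was the same, with 850 in DN, 6979 in pre-B and 12132 in DP cells. Its best consensus match had 3 mismatches, and the matrix placed a match above the threshold, with a score of 15.0, that points to lower coordinates, toward Vpreb2.

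V6, 41.4 kb before the start of Vpreb2, was also in all 5 lists but was unevenly ranked. It stood at percentiles 93.2 and 96.0 for CTCF, 87.4 for pre-B Rad21 and 91.7 for DP Rad21, while its DN Rad21 peak, with a score of 91.28, stood at 7.02, and it stood lowest in DN by rank too (9016 against 3842 in pre-B and 3055 in DP cells). V15, over the coding start of Dgcr6 and 72.3 kb past the start of Vpreb2, had a DP Rad21 peak at percentile 88.2 against 39.3 in pre-B cells and 22.6 in DN thymocytes. Pre-B stood above DN by percentile alone, since the DN peak ranked 7504 and the pre-B peak 18511, behind the DP peak at 4325. Its CTCF peaks stood at 72.0 in pre-B and 92.6 in IL7 pro-B cells. V4, just beyond the 5′ end of the mitochondrial carrier gene Slc25a1, had the highest-ranked pre-B CTCF peak of both windows, at 94.3, but Rad21 percentiles of 55.0 for pre-B and 38.3 for DP cells. V12, 50.4 kb past the 3′ end of Vpreb2, showed the reverse order, with pre-B CTCF at 70.5 and Rad21 at 82.3 for pre-B and 78.0 for DP cells. At V13, 55.2 kb past that end, Rad21 was called in pre-B cells alone and stood low, at 17.5, with CTCF at 63.6 and 76.2. With the IL7 list cut to the length of the pre-B list, IL7 pro-B CTCF at V13 stood at 59.9.

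Among the windows, only that of Vpreb2 held pre-B CTCF peaks that the longer IL7 pro-B list lacked. They were V1 in Dgcr2 and V18 and V21 in Prodh, all more than 88 kb from Vpreb2 and at percentiles of 5.64, 6.32 and 25.3. The IL7 pro-B list alone held V8 and V9, in the intergenic sequence 13 and 10.6 kb before the 5′ end of Vpreb2, at percentiles of 17.3 and 2.47, and the start site peak V10.

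**Figure D3:**
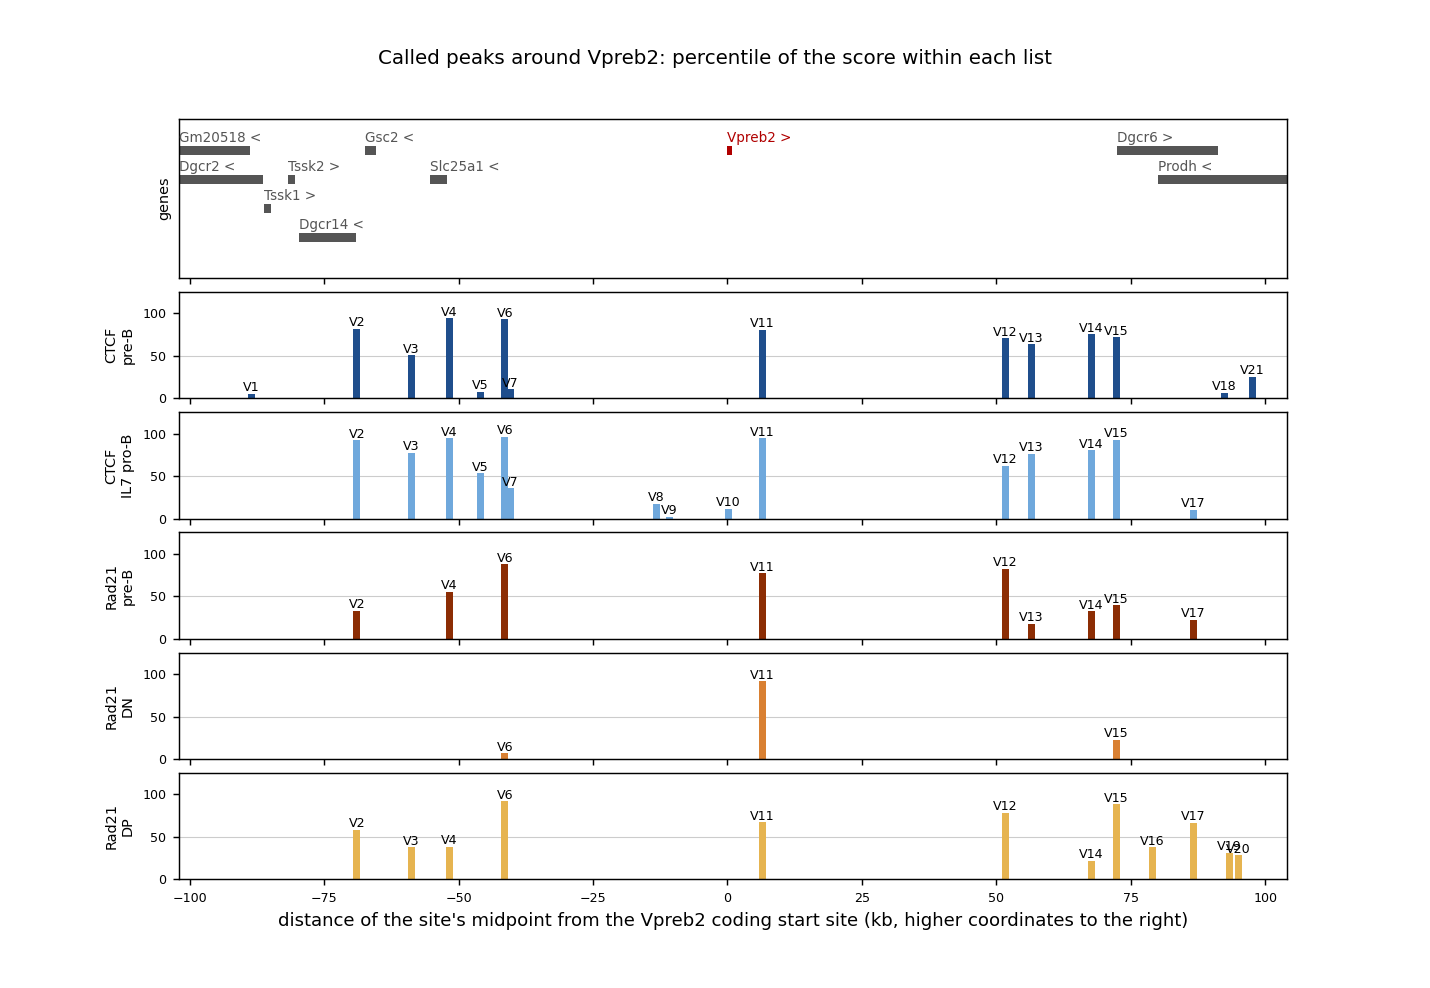
Genes (top; > and < give the direction of transcription) and called peaks in the 5 libraries around Vpreb2, by distance of the site's midpoint from the Vpreb2 coding start (kb, horizontal axis) and percentile of the score within each list (vertical axes). V6, V11 and V15 are present in all 5 lists, and V11 is the nearest Rad21 site to the gene, with percentiles of 77.1, 91.2 and 67.0 in pre-B, DN and DP cells.

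Pre-B cells were then compared with thymocytes over all 20 Rad21 sites of the windows. Rad21 was called in all 3 cell types at 5 sites (25.0%, exact 95% interval 8.66 to 49.1%), against 18.7% of the 46478 merged Rad21 sites of the genome. In pre-B and DP cells, without DN, it was called at 7 sites (35.0%, 15.4 to 59.2%), against 25.1%. In DP thymocytes alone it was called at 6 sites (30%, 11.9 to 54.3%), against 33.6%. In pre-B cells alone it was called at the 2 sites L11 and V13 (10.0%, 1.23 to 31.7%), against 20.6%. Each genome-wide share lay within the interval, which covers counting error only, so no difference of the windows from the genome was detectable with 20 sites. No site was called in DN thymocytes alone, a class that made up 0.310% of sites in the genome.

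Of the 6 sites called in DP thymocytes alone, L9 and V3 were CTCF sites in both B-lineage lists, whereas L8, V16, V19 and V20 lacked a CTCF peak. The share without CTCF among all such sites of the genome is not given, so this split has no background here. CTCF in thymocytes was not analysed here. These 4 sites stood at DP percentiles from 17.5 at L8, in an exon of Top3b, to 37.9 at V16, in an intron of Dgcr6. When each Rad21 list was cut to the length of the DN list, the sites in DP alone numbered 2, L7 and L9, and no site was left in pre-B cells alone. In the genome these classes then made up 15.6% and 14.8% of sites.

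**Figure D4:**
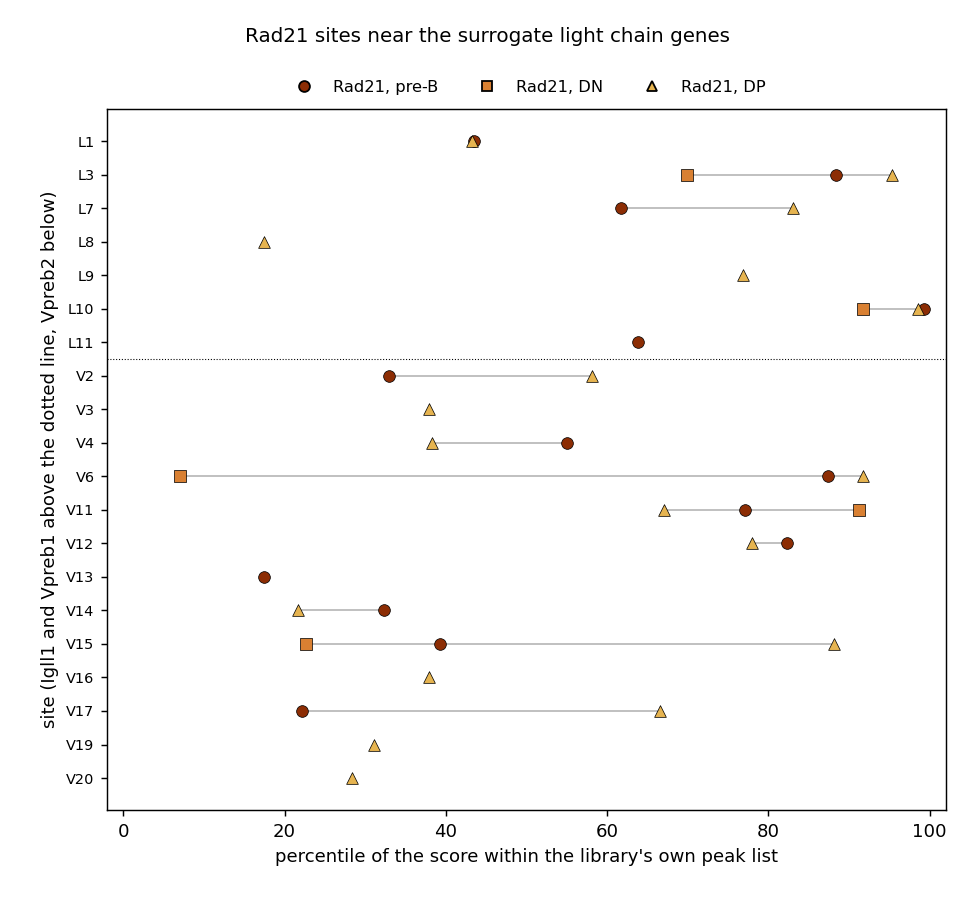
The 20 Rad21 sites of the windows (rows, in coordinate order) and the percentile of the Rad21 score within the list of pre-B cells (circles), DN thymocytes (squares) and DP thymocytes (triangles), where a missing symbol means that no peak was called. L11 and V13 have a pre-B peak only, 6 sites have a DP peak only, and the DN peaks range from 7.02 at V6 to 91.7 at L10.

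CTCF and Rad21 coincided in pre-B cells about as often near the members as elsewhere. A pre-B Rad21 peak overlapped 13 of the 20 pre-B CTCF peaks (65.0%, exact 95% interval 40.8 to 84.6%), 5 of 6 around Igll1 and Vpreb1 and 8 of 14 around Vpreb2, against 63.5% in the genome. In turn, all 14 pre-B Rad21 peaks overlapped a CTCF peak of one of the B-lineage lists, against 92.4%. Of the DP Rad21 peaks 14 of 18 did (77.8%, 52.4 to 93.6%), against 69.2%. An IL7 pro-B CTCF peak overlapped 17 of the 20 pre-B CTCF peaks (85.0%, 62.1 to 96.8%), against 96.0%. In the other direction, 9 of 26 IL7 pro-B CTCF peaks had no pre-B counterpart (34.6%, 17.2 to 55.7%), against 41.4%.

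The CTCF consensus with at most 2 mismatches was found in 9 of the 20 pre-B CTCF peaks (45.0%, exact 95% interval 23.1 to 68.5%). The share was 48.3% over all pre-B CTCF peaks and 9.04% in sequences of the same length 2000 bp away. With at most 1 mismatch 4 of 20 peaks matched (20%), against 16.1% of all, and with at most 3 it was 19 of 20 (95%), against 91.2%. L3, L11 and V15 were among those with at most 1 mismatch. Absence of a match says only that these letters were not found in the peak.

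The partners of the surrogate light chain in the pre-B cell receptor and its pathway were described in the same way. Of 13 listed genes 12 were matched by name in the annotation: Ighm, Cd79a and Cd79b for the receptor chains, Lyn, Blnk and Btk for signalling, and Ebf1, Pax5, Tcf3, Ikzf1, Ikzf3 and Foxo1 for transcriptional regulators. A pre-B Rad21 peak lay within 2 kb of a start site at 9 of the 12, where 22.7% of protein-coding genes had one, and a DP Rad21 peak at 5, where 34.5% had one. None had a DN Rad21 peak there, and 5.35% of genes did. For CTCF the counts were 5 in pre-B cells (30% of genes) and 8 in IL7 pro-B cells (43.2% of genes). Among the members, Vpreb1 had a peak within 2 kb of its start in every list but DN Rad21, with L7 at Top3b giving its pre-B CTCF, pre-B Rad21 and DP Rad21 peaks, and Igll1 and Vpreb2 had an IL7 pro-B CTCF peak only.

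The windows of 6 of the 12 listed genes held more Rad21 peaks in pre-B cells than in DP thymocytes, against 30.4% of protein-coding genes, and those of 5 held fewer, against 43.8%. The DP list is the longer of the 2. Each window includes the gene body, so longer genes have longer windows, and the counts were not adjusted for this. Ikzf1 and Ikzf3, which encode Ikaros and Aiolos, had 7 and 17 pre-B peaks against 27 DP peaks each, and Lyn, a Src family kinase, had 15 against 3. Pax5, a regulator that commits cells to the B lineage, had 13 pre-B Rad21 peaks in its window against 0 in DN and 1 in DP thymocytes. Igll1 and Vpreb1 had 5, 2 and 6 in the same order and Vpreb2 had 9, 3 and 12. The medians over protein-coding genes were 5, 1 and 5, and 54.0%, 47.6% and 49.5% of genes had at least as many peaks as Igll1 and Vpreb1, so the counts of this pair were those of a typical gene. Vpreb3, a related gene that is not part of the surrogate light chain, had 8, 2 and 8, with no peak within 2 kb of its start in any list. Ptcra encodes pre-Tα, the chain that does in thymocytes what the surrogate light chain does in B cells, and it had 9, 0 and 12 peaks in its window and a DP Rad21 peak within 2 kb of its start. The Rad21 counts of Igll1 and Vpreb1 were shared exactly by 84 other protein-coding genes and those of Vpreb2 by 21.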

How the data were processed

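Of the deposited data, the 5 peak lists were used, 1 library each. Per the study's methods, the authors removed duplicate reads, aligned to mm9 keeping reads with up to 3 places, and called confident peaks against input with MACS. The submitters' processing notes name MACS 1.4.2 and Bowtie 0.12.9. The methods name a different Bowtie version, and which of them made these lists is unsettled. The pre-B CTCF and Rad21 libraries shared 1 input. The deposited score of each peak is derived by MACS from its p-value, and it was ranked within 1 list only. Gene positions and sequences came from GENCODE vM1 and the genome of the same build, on which 0 peaks ended past a chromosome end. Overlap meant 1 bp or more. Shares carry exact Clopper-Pearson intervals at 95%, which cover counting error only. Merging, overlap and motif search were tested on simulated data. Python 3.11.15, pysam 0.24.0 and scipy 1.17.1 were used.

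The genes named were the members, the genes at or nearest to their peaks, Vpreb3, Ptcra and a list of 13 pre-B cell receptor genes. Members and lists were chosen with earlier results of these data known. The alternatives were scores of at least 100, lists of equal length, windows of 50 and 200 kb, peak midpoints, overlap of at least 50%, other mismatch limits and, chosen after the data were seen, a 20-base matrix, the start site peaks under the first 2 of these and percentiles within lists of equal length.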

Additional observations from a re-analysis of the deposited data

How the results depend on the processing

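With lists of equal length (9701 Rad21 peaks), the windows held 5 pre-B and 7 DP Rad21 peaks. Rad21 sites numbered 3 in all cell types, 1 in pre-B and DP, 2 in DP alone and 0 in pre-B alone. The genome-wide shares of these classes were then 33.2%, 6.50%, 15.6% and 14.8%. Rad21 then overlapped 25.0% of pre-B CTCF peaks near the members and 23.2% genome-wide. With the full lists these shares were 65.0% and 63.5%, so the fall was not particular to the windows. With windows of 50 kb the counts were 10 pre-B CTCF, 16 IL7 pro-B CTCF, 7 pre-B Rad21 and 8 DP Rad21 peaks. The sites then numbered 2 in pre-B and DP, 2 in DP alone and 1 in pre-B alone, and 100% of pre-B CTCF peaks were in the IL7 list. With windows of 200 kb the counts were 34 and 46 CTCF peaks in pre-B and IL7 pro-B cells, 27, 9 and 31 Rad21 peaks in pre-B, DN and DP cells, and 8, 14 and 5 sites in all cell types, in pre-B and DP, and in pre-B alone. The consensus matched 20% and 95% of pre-B CTCF peaks with at most 1 and 3 mismatches. The start site peaks numbered 1 of 3 both with scores of at least 100 and with lists of equal length. The other recomputed values, which cover the peaks per list, the Rad21 sites by cell type, the pre-B CTCF peaks with Rad21 or an IL7 peak and the motif, stayed within 1.5 times the reported count or within the interval of the share. The pathway counts, the shares of Rad21 peaks with CTCF and the share of IL7 peaks without a pre-B peak were not recomputed. No paired analysis was possible because each antibody and cell type has 1 library. What the unknown read depths contribute was not tested.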
